A study of Mus musculus with 19 samples.

Results

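Libraries B1 and B2 are replicates of the second of 6 laminar segments cut from the primary somatosensory cortex (S1), each made from the pooled RNA of 4 littermates. All animals were male C57BL/6 mice (C57BL/6J in the study's methods) aged 56 days, for which neither a treatment nor an engineered allele is given, and the segment is mostly layer 4. They were killed by cervical dislocation and their brains kept in RNAlater before dissection. Polyadenylated RNA longer than 200 nt was sequenced from both ends, and cufflinks estimated FPKM, a fragment count scaled to model length and to the mapped fragments of the library, for each Ensembl gene, with a 95% interval of the estimate. The comparison took every gene whose widest interval over the 7 S1 libraries spanned at most 50% of its mean FPKM. This left 11409 of the 24130 genes listed in those libraries. Of the 11409, 84 had a value of 0 in both B1 and B2, where a gene without a line was set to 0. These libraries are 2 of the 19 in the series. Litter, RNA extraction, library and mouse pool differed together between B1 and B2 and cannot be told apart, and with 1 library per litter no test between the litters was possible. Segments A (layers 1 to 3), C and D (upper and lower layer 5), each 1 pool of 8 mice of both litters, serve as neighbors, and C enters both the comparison with A and that with D.

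Layer 4 of S1 is the main target of the somatosensory thalamus and holds densely packed spiny stellate neurons. Neuronal firing induces a set of immediate early genes within minutes, among them the Fos, Jun, Egr and Nr4a transcription factors. ATP for synaptic transmission comes mainly from oxidative phosphorylation by complexes I to V, whose subunits are encoded partly by the mitochondrial genome and mostly by nuclear genes. The comparison asks which of these and other gene classes differed between litters at a fixed laminar position and which were stable.

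The labels were checked against layer 4 markers. Rorb, a nuclear receptor of layer 4 neurons, stood at 17.8 FPKM in B1 and 22.1 in B2, against 5.98 in A and 12.6 in C. Rspo1, a secreted Wnt agonist, stood at 30.1 in B1 and 18.6 in B2, against 4.48 in A and 7.54 in C. Both libraries exceeded A at all 10 listed layer 4 markers and exceeded both neighbors at 6 of them. Of the other 4, Hsd11b1 (20.8 FPKM in C) and Endou (3.56 in C) were higher in C than in either library, Rora (20.6 in C) than in B1, and Whrn (15.4 in C) than in B2. Summed over the 10 listed layer 4 markers, FPKM was 137 in B1, 115 in B2, 32.7 in A and 101 in C. B2 was the deeper library, with an estimated 74.9 M mapped fragments against 48.9 M in B1, and its median 95% interval spanned 10.8% of the FPKM against 13.3%.

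Ratios are given as log2 of (B2 + 0.1 FPKM) over (B1 + 0.1 FPKM), so that positive values are higher in B2. Adding 0.1 FPKM understates the differences of weakly expressed genes. Over the 11409 genes the median log2 ratio was -0.00 and the median absolute log2 ratio was 0.29. At a limit of 1.5-fold, 1210 genes (10.6%) were higher in B2 and 1108 genes (9.71%) were higher in B1. These shares are the background for every count of members below. In contrast, the 95% intervals did not overlap at 3666 genes (32.1%) higher in B2 and 3911 genes (34.3%) higher in B1, so nonoverlap of the intervals, which hold no variation between mice, was far more common than a 1.5-fold difference. Between C and D, separate segments from the same 8 mice, 598 genes (5.24%) differed by 1.5-fold in either direction, and the median absolute log2 ratio was 0.12. At the other end, and with the genes at 0 in both libraries included, 2939 genes (25.8%) agreed within 1.1-fold between the litters and 5214 genes (45.7%) within 1.2-fold.

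Transcription factors induced by neuronal activity were higher in B1. Of 19 listed factors, 12 passed the interval filter, and 9 of these were at least 1.5-fold higher in B1, against a background of 9.71% of genes. None was 1.5-fold higher in B2. The median log2 ratio of the 12 factors was -0.88. Ier5, an immediate early gene of the Ier family (mm9 chr1:156945634-156946560), differed most, and its 44.8 FPKM in B1 (42.9 to 46.6, the 95% interval) compared with 14.5 in B2 (13.6 to 15.3). Egr3, a zinc finger factor required for muscle spindle development (chr14:70477252-70479964), reached 67.2 in B1 (65.3 to 69.0) but 30.2 in B2 (29.2 to 31.2). B1 lay above B2 at both genes with well separated intervals. The AP-1 subunits followed the same direction. Junb stood at 11.7 in B1 and 4.90 in B2, Jun at 18.4 and 10.3, and Fosl2 at 6.83 and 2.80. Egr4 had 13 FPKM in B1 and 5.76 in B2. Nr4a1, an orphan nuclear receptor, had 16.3 and 8.76. Npas4, a bHLH-PAS factor induced selectively by calcium entry, had 2.65 and 1.45, and Ier2 had 6.08 and 3.26. In the 9 factors, B1 was higher than B2 by between 1.78-fold (Npas4 and Jun) and 3.08-fold (Ier5). B1 was the highest of all 7 S1 libraries at 8 of the 9, which were themselves selected as higher in B1. B2 was the lowest of the 7 at Junb, Nr4a1, Ier2, Jun and Npas4. It held rank 4 at Fosl2, 5 at Egr3 and Egr4 and 6 at Ier5. At the other tested factors, B1 held rank 2 for Egr1, 3 for Fosb and 5 for Klf10.

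Not every induced factor took part. Egr1, the most abundant of the list, stood at 68.3 FPKM in B1 and 58.5 in B2, a log2 ratio of -0.22. Fosb (1.84 and 1.55) and Klf10 (6.77 and 6.68) had overlapping intervals. The prototype Fos did not pass the filter, and its intervals, 2.57 to 4.25 around 3.41 FPKM in B1 and 1.56 to 2.70 around 2.13 in B2, overlapped. The other 6 factors that did not pass, Atf3, Egr2, Klf4, Maff, Nr4a2 and Nr4a3, were below 2 FPKM in both libraries with overlapping intervals. Only Nr4a2 of all 19 was higher in B2, at 1.51 against 1.27 FPKM. Between C and D none of the 12 tested factors reached 1.5-fold, and their median log2 ratio was 0.05.

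**Figure D1:**
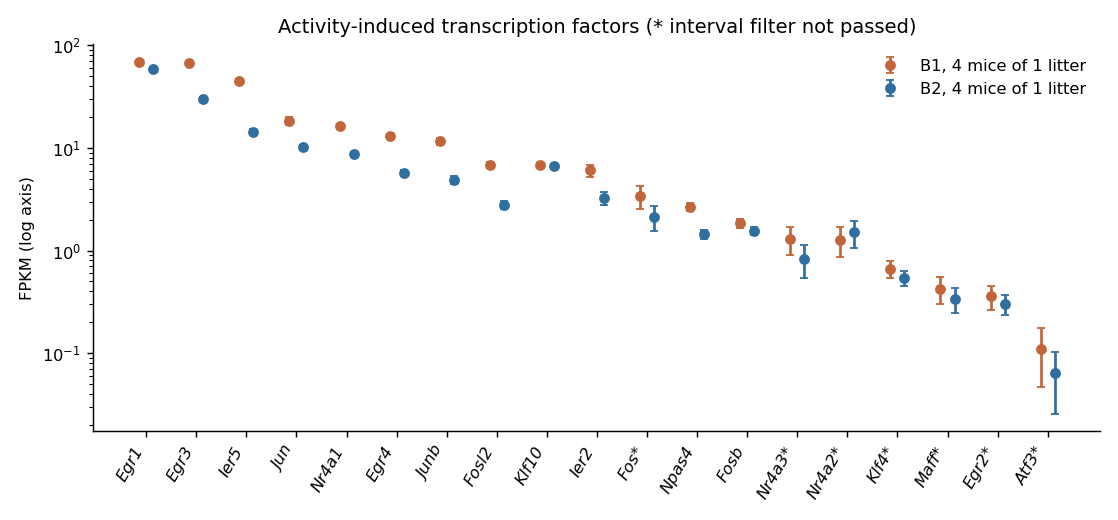
FPKM of the 19 activity-induced transcription factors (log axis) in B1 and B2, each a pool of 4 mice of 1 litter. Bars are the 95% intervals of the estimates within a library. B1 lay above B2 at all 12 factors that passed the interval filter, with Klf10 nearly level (6.77 and 6.68 FPKM).

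Many activity-induced genes are known to be controlled by CREB, which binds TGACG elements near the transcription start. The 180 bases before the start, taken from RefSeq (GRCm38.p6), are shown for Egr4, Npas4 and Nr4a1, the factors higher in B1 whose windows held at least 2 TGACG elements on either strand. Capitals mark TGACG or its reverse complement CGTCA.
Egr4 (chr6:85513590-85513769, minus strand): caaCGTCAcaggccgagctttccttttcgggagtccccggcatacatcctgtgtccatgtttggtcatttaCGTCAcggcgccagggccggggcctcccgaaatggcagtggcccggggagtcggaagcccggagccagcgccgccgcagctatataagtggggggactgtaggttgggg
Npas4 (chr19:4989972-4990151, minus strand): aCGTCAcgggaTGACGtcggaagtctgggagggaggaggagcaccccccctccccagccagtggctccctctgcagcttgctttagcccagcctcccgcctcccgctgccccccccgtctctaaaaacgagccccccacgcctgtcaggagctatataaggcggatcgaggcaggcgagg
Nr4a1 (chr15:101266666-101266845, plus strand): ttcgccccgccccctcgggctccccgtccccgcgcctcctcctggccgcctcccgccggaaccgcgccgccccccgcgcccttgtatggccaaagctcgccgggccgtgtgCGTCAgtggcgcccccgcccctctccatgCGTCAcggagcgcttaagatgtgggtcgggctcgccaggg
Of the 32851 promoters in the RefSeq table, 14.8% held at least 1 such element in this window and 3.13% held at least 2. Promoters were found for 15 of the 19 factors. By the promoter with the most elements, 11 held at least 1 element and 7 at least 2. These counts are per factor and the shares above per promoter, and Egr2 (5 promoters) and Maff (3) have several. The 7 also included Egr2, Fos, Maff and Nr4a2, which did not pass the interval filter and are not shown. Nr4a2, the only factor higher in B2, held the most elements, 3. Egr1, Egr3, Ier2 and Klf10 had no promoter to search, and Egr3 and Ier2 were among the factors higher in B1. Ier5, Fosl2 and Jun, all higher in B1, held none, so the element was not shared by all the factors that differed.

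Other activity-related genes, listed as effectors, were split. Of 30 listed, 26 passed the filter, 7 were 1.5-fold higher in B1 and 1 was higher in B2, with a median log2 ratio of -0.17. Per1, a clock gene also induced by activity, was lowest in B2 relative to B1, with 16.3 FPKM in B1 and 7.65 in B2. Vgf, a secreted neuropeptide precursor, had 207 and 103. Arc, a regulator of AMPA receptor endocytosis, had 23.8 and 13.9, and the phosphatase gene Dusp1 had 9.29 and 5.69. On the other hand, Rheb, the GTPase that activates mTORC1, had 23.0 FPKM in B1 and 36.5 in B2. Homer1 (68.9 and 61.5), Plk2 (34.6 and 36.5) and Scg2 (57.6 and 51.9) stayed within 1.5-fold, as did Rgs4, the most abundant, with 267 and 336. The factors are GC-rich, with a median GC content of 57.1% over the 12 tested, against 49.4% over the 26 tested effectors. However, the 7 effectors higher in B1 ran from 54.8% (Dusp1) to 64.8% (Vgf), and Rheb had 43.2%. GC content moved with the ratio over all genes, as described below.

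The opposite direction was seen for the mitochondrial genome, where all 13 mRNAs were higher in B2 by at least 2-fold. Over all 11409 genes, 413 were higher in B2 by that much. The median log2 ratio was 1.79. They were divided here by their place on the circular genome. The 7 mRNAs from mt-Co1 to mt-Nd4l, which lie next to each other, had log2 ratios between 1.79 and 2.71. The 6 others, mt-Nd1, mt-Nd2, mt-Nd4, mt-Nd5, mt-Nd6 and mt-Cytb, had ratios between 1.00 and 1.46. The stretch was not planned and its ends fall at the gap in these same ratios, so the separation of the ranges follows from the split. After centering on transcript length and GC content, described below, the stretch ran from 1.03 to 1.84 and the others from 0.35 to 1.07. The centered ranges thus overlapped, and the part of length in the split was not tested. For example, mt-Co3, a subunit of cytochrome c oxidase, stood at 195 FPKM in B1 and 1070.0 in B2, and mt-Nd3, a complex I subunit, at 37.2 and 235. Among the others, mt-Nd1, a core subunit of complex I, stood at 4134 and 8272, and mt-Cytb, of complex III, at 4393 and 11413. The rRNAs mt-Rnr1 (1711 and 3557) and mt-Rnr2 (2478 and 5911) resembled the second set.

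The same stretch also separated other libraries. Between C and D, the median log2 ratio of D to C was 0.69 over the 7 mRNAs from mt-Co1 to mt-Nd4l and -0.09 over the 6 others. A exceeded B2 at all 7 mRNAs of the stretch, by 0.50 to 1.74 on the log2 scale, and at 4 of the 6 others, where the log2 ratio of A to B2 ran from -0.13 to 0.26. Nuclear copies of mitochondrial sequence listed in the files moved alike, with Gm13340 on chromosome 2 at 102 FPKM in B1 and 618 in B2. Gm10222 on chromosome 1 stood at 90.4 and 613. Reads of these pseudogenes and of the mitochondrial genes can be near identical, so the values of either are uncertain, and the part of shared reads in the ratios was not tested.

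**Figure D2:**
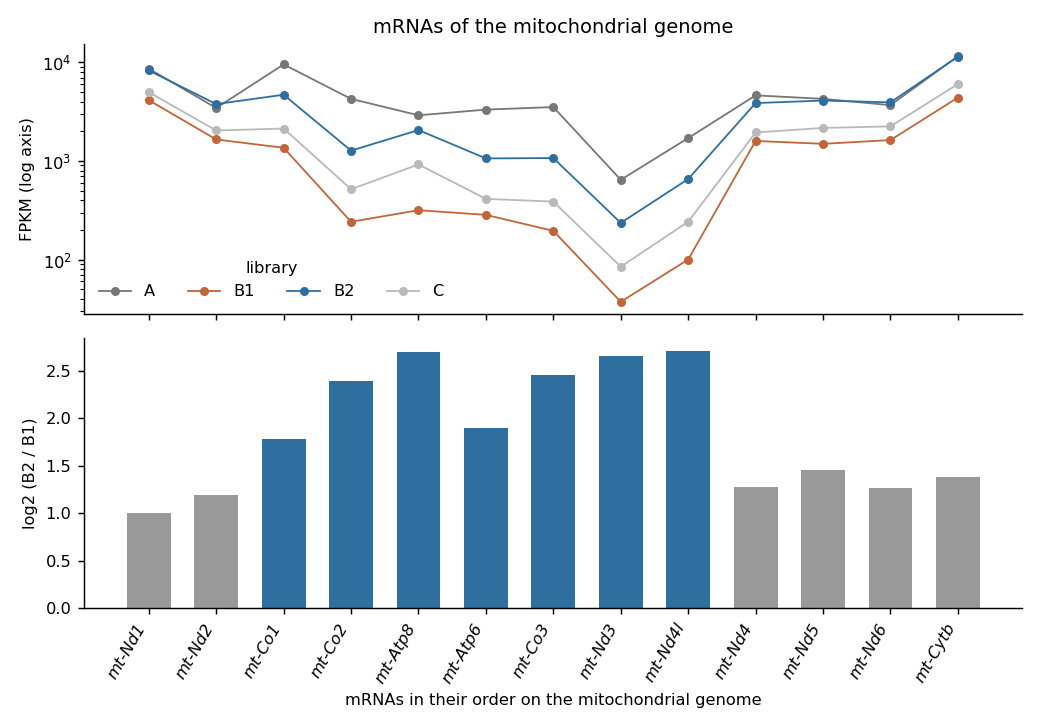
FPKM (log axis, top) of the 13 mitochondrial mRNAs in libraries A, B1, B2 and C, and their log2 ratio of B2 to B1 (bottom), in the order of the genes on the mitochondrial genome. Blue bars mark mt-Co1 to mt-Nd4l, at 1.79 to 2.71, and gray bars the other mRNAs, at 1.00 to 1.46.

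Nuclear genes of oxidative phosphorylation were also higher in B2, less so and not in every complex. Complex I, the NADH dehydrogenase, had 18 of 33 tested subunit genes at least 1.5-fold higher in B2 and none higher in B1, with a median log2 ratio of 0.67. Ndufa4, counted here by its gene name although its protein is now assigned to complex IV, had 20.8 FPKM in B1 and 68.1 in B2. Ndufb9, the most abundant, had 156 and 206, and Ndufs7 had 87.7 and 80.7. Complex IV, cytochrome c oxidase, had 5 of 10 higher in B2 (median 0.64), from Cox6c with 12.6 and 46.6 FPKM to Cox6a1 with 396 and 364. In complex V, the ATP synthase, 6 of 13 were higher in B2 (median 0.58), led by Atp5l with 0.98 and 6.12 FPKM. Atp5b, its catalytic beta subunit, was the exception, with 524 FPKM in B1 and 333 in B2. Complex III had 2 of 8 higher (median 0.38), Uqcrb (3.68 and 9.47) and Uqcr10 (24.8 and 57). Complex II, the only complex with no mitochondrially encoded subunit, had none of 4. Sdha stood at 98.0 and 92.7 FPKM, Sdhc at 49.1 and 46.3, Sdhd at 33.1 and 32.9, and Sdhb at 54.6 and 72.9.

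Transcript length moved with these ratios. Of the 68 tested nuclear subunit genes, 41 had models shorter than 700 nt, and 25 of them were 1.5-fold higher in B2, with a median log2 ratio of 0.78. The median over all 814 tested genes of that length was 0.32, and 37.0% of them were higher in B2. The 19 subunit genes of at least 1000 nt had a median of 0.31, with 3 higher in B2 and 1 in B1, against -0.04 over all genes of that length.

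Other mitochondrial functions differed less. In the citrate cycle and pyruvate dehydrogenase list, 1 of 21 tested genes, Pdhb, was higher in B2 (4.74 and 8.10 FPKM), and the median log2 ratio was 0.20. Mdh2, malate dehydrogenase, stood at 121 and 145, citrate synthase (Cs) at 41.6 and 47.1, and Pdhx, the binding protein of the pyruvate dehydrogenase core, at 13.4 and 9.49. For the mitochondrial ribosome, 11 of 66 genes were higher in B2 and 1 in B1 (median 0.21), from Mrpl47 (2.43 and 7.46) to Mrpl57 (19.5 and 12.8). Among genes of import and dynamics, 6 of 19 were higher in B2 (median 0.22). The chaperonin gene Hspe1 had 2.79 and 6.21 FPKM, whereas Slc25a4, the adenine nucleotide carrier and most abundant of the list, had 261 and 217.

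Genes of the cytosolic ribosome and of the proteasome were also higher in B2. Of 77 listed cytosolic ribosomal protein genes, 32 passed the filter, 20 of these were higher in B2 and none in B1, with a median log2 ratio of 0.92. Rpl37 had 7.53 FPKM in B1 and 28.5 in B2, and Rpl4, of 1389 nt, had 33.2 and 101. Rpl8, the most abundant, had 227 and 222. Ribosomal protein genes have many processed pseudogenes that can share their reads, so their values are uncertain. Over the 381 tested processed pseudogenes of all genes, 155 were higher in B2 and 18 in B1, with a median of 0.43. The proteasome had 12 of 32 genes higher in B2 and none in B1 (median 0.53), as in Psma2 (2.63 and 7.64) and Psmc1 (8.24 and 21.3), with Psmc5 at 105 and 134 and Psmd9 at 13.3 and 9.49. Smaller medians were found for the TRiC chaperonin (0.42, 1 of 7 higher in B2), the COP9 signalosome (0.35, 1 of 7), initiation factor eIF3 (0.27, 1 of 10) and the vacuolar proton ATPase (0.19, 4 of 19). The tRNA synthetases (0.25) had 2 of 17 higher in B2, as in Farsb (11.9 and 19.1), and 1 in B1, Vars (12.3 and 7.75).

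Glycolysis and cholesterol synthesis had medians near 0, at -0.06 and -0.06. In glycolysis 3 of 16 genes were higher in B2, Ldhb (42.8 and 93.9 FPKM), Pfkp (48.4 and 84.1) and Pgk1 (6.84 and 11.9), whereas hexokinase 1 (Hk1) stood at 107 and 76.6. Of the 19 cholesterol genes 4 were higher in B2, Fdps most (1.14 and 2.72). Among 199 tested Zfp zinc finger genes, 7 were higher in B2 and 24 in B1 (median 0.02). Their extremes were Zfp59, at 0 FPKM in B1 and 1.5 in B2, and Zfp865, at 8.80 and 4.40. A value of 0 can stand for a gene without a line.

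Glial and vascular markers were mostly stable. Over 91 tested genes of these lists, 6 were higher in B2 and 9 in B1, and the median log2 ratio was 0.01. The background is 10.6% of genes toward B2 and 9.71% toward B1, so these counts were below it toward B2 and near it toward B1. In bulk tissue, fewer cells of a type and less RNA per cell cannot be told apart. Astrocyte markers had a median of 0.00 over 20 genes. Slc1a2 and Slc1a3, the glutamate transporters, stood at 291 and 312 FPKM and at 80.7 and 83.9, and Gfap at 5.81 and 4.68. The exceptions were S100b, a calcium-binding protein (54.1 and 93.2), and Fgfr3 (28.1 and 16.3). Summed FPKM of the 20 markers was 1741 in B1 and 1817 in B2.

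Myelin was level between the litters. Mbp, myelin basic protein, stood at 460 FPKM in B1 and 469 in B2. Summed over the 19 listed oligodendrocyte markers, FPKM was 961 in B1, 985 in B2, 405 in A and 1851 in C, so these depth-graded transcripts placed B1 and B2 at the same level between their neighbors. Nevertheless, 3 of 18 tested markers were higher in B1. Among them were Sox10, the lineage transcription factor (8.49 and 3.84), and Mag (35.9 and 22.1). The oligodendrocyte precursor list leaned the same way. Of 9 tested genes, 4 were higher in B1, Tnr (13.8 and 7.29), C1ql1 (3.28 and 1.89), Cspg4, the NG2 proteoglycan (1.59 and 0.92), and Olig1 (31.5 and 19.96). The median was -0.55. Pdgfra, the growth factor receptor that defines the precursors, stood at 2.11 and 1.98. The 8 precursor markers with a known GC content had a median of -0.11 after centering on length and GC content, and none of them remained beyond 1.5-fold.

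Microglial and vascular genes showed no common direction. Microglial markers had a median of -0.03 over 14 genes, with Cx3cr1 (6.96 and 6.83) and C1qb (21.1 and 20.5) level, Aif1 (2.29 and 3.78) and Fcer1g higher in B2, and Tmem119 higher in B1 (4.99 and 2.98). Endothelial markers had a median of 0.02 over 15 genes. Cd34 was level (32.2 and 32.4), only the organic anion transporter Slco1a4 reached the limit (4.37 and 6.64), and the tight junction gene Cldn5 stood at 29.5 and 22.8. None of the 8 tested mural markers reached 1.5-fold (median -0.06), with Rgs5 at 19.4 and 26.3. Only 3 of 16 meningeal genes passed the filter and none reached 1.5-fold. Ptgds, prostaglandin D synthase, stood at 74.6 FPKM in B1 and 101 in B2 against 1733 in A. Blood was low in both. The summed FPKM of 7 blood genes was 101 in B1, 145 in B2 and 940 in A, and Hba-a1 had 13 and 24.6, although globin genes are near-identical copies.

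**Figure D3:**
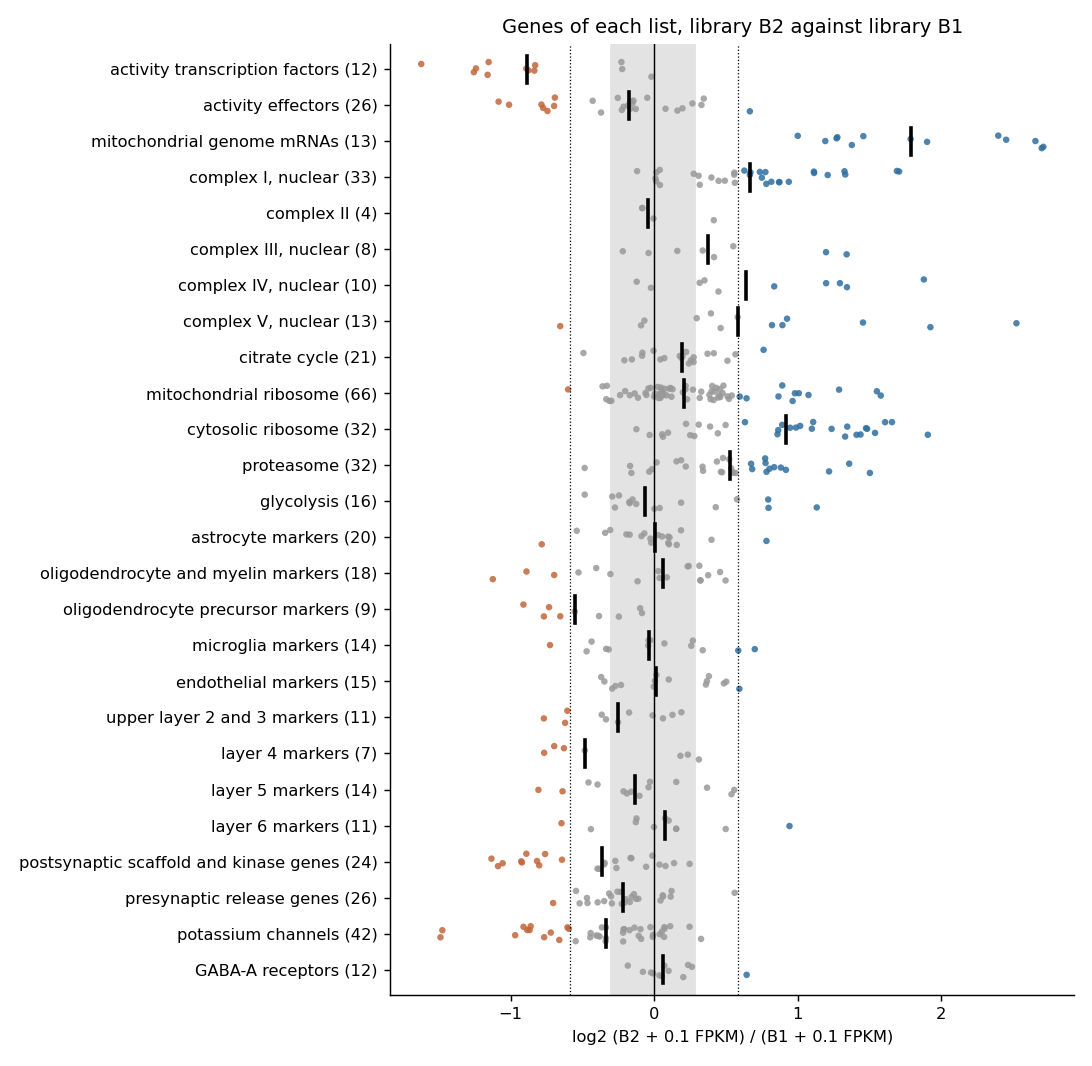
Log2 ratio of B2 to B1 for each tested gene of 26 lists, with the number of tested genes in parentheses. Points are genes, blue at least 1.5-fold higher in B2 and orange in B1 (dotted lines), black bars are list medians, and the gray band is the middle 50% of all 11409 genes. Mitochondrial and ribosomal genes lie to the right, activity factors to the left, and glial markers around the center.

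Neighboring layers were probed with marker lists and with A and C themselves. The upper layer 2 and 3 markers had a median log2 ratio of -0.25, with 3 of 11 higher in B1 and none in B2. These were Pou3f3 (31.5 and 18.5 FPKM), Cux2 (43.5 and 28.6) and Mdga1 (3.08 and 1.97). Lamp5 stood at 219 and 240, Calb1 at 29.7 and 33.9, and Rasgrf2 at 49.7 and 49.3. Of these 11 markers, 8 were at least 2-fold higher in A than in C, and their summed FPKM over 14 listed genes was 483 in B1 and 468 in B2. Layer 5 markers had a median of -0.13 over 14 genes, all at least 2-fold higher in C than in A, and 2 of them were higher in B1. Fezf2, the selector of corticospinal neurons, stood at 6.06 and 3.86, and Fam84b at 0.92 and 0.48, whereas Pde1a stood at 21.9 and 32.3 and Etv1 at 1.83 and 2.70. Layer 6 markers had a median of 0.08 over 11 genes. Tbr1 was higher in B1 (41.8 and 26.7) and Ighm higher in B2 (2.35 and 4.60). No layer 6b marker of 7 and no striatal marker of 3 reached 1.5-fold. The filter uses the mean over 7 libraries, and some layer 6b markers were near the floor in both B1 and B2. Nxph4 had 0.055 and 0.056 FPKM, below the added 0.1, and 41.3 in the layer 6b segment. Ccn2 had 0.63 and 0.79, and 167 in that segment. The ratios of such genes say little, whereas Ppp1r1b was well above the floor, at 81.9 and 57.1.

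The layer 4 markers themselves did not agree. Of 10 listed, 7 passed, and 3 were higher in B1, the potassium channel Kcnh5 (20.9 and 12.2 FPKM), Rspo1 (30.1 and 18.6) and the netrin receptor Unc5d (8.62 and 5.54). Scnn1a, a sodium channel subunit whose promoter drives layer 4 Cre lines, stood at 2.87 and 2.02. In the other direction were Rorb (17.8 and 22.1), Rora (18.4 and 21.7) and Hsd11b1 (9.82 and 11.2), all within 1.5-fold. The untested Whrn stood at 22.2 and 13.4, Endou at 1.66 and 3.03, and Thsd7a at 4.43 and 4.97. The median of the 7 was -0.48. Unc5d has no GC value, and the 6 others had a median of -0.15, which was -0.12 after centering on GC content.

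The 902 tested genes at least 2-fold higher in A than in C had a median log2 ratio of 0.29, with 311 (34.5%) higher in B2 and 86 (9.53%) higher in B1. Without the mitochondrial genome and the mitochondrial and housekeeping lists, 831 genes remained, with a median of 0.23 and with 265 and 84 beyond 1.5-fold. The 2989 genes at least 2-fold higher in C had a median of -0.02, with 95 (3.18%) higher in B2 and 220 (7.36%) higher in B1. The ratio of A to C was itself related to transcript length (Spearman's rho -0.38, n = 11167 genes) and GC content (0.42, n = 10518). The A-high genes were short, with a median of 1192 nt against 3265 nt in the C-high genes. After centering on length and GC content, 28.0% of the A-high genes were higher in B2 and 4.47% in B1, against 1.03% and 6.80% of the C-high genes. B2 was thus nearer to A at these genes, whereas the upper layer markers, which are also high in A, did not lean toward B2.

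Postsynaptic genes were higher in B1 where they passed 1.5-fold, and presynaptic genes seldom passed it. Postsynaptic scaffold and kinase genes had 10 of 24 higher in B1 and none in B2, with a median log2 ratio of -0.36. Iqsec1, an Arf exchange factor, had 102 FPKM in B1 and 46.6 in B2. The scaffold genes Shank1 (161 and 84.9), Shank3 (50.2 and 24.1), Dlgap3 (269 and 127) and Dlg4, encoding PSD-95 (443 and 284), were all higher in B1, while Dlg1 stood at 31.5 and 37.4. Nrgn, neurogranin, the most abundant of the list, stood at 2958 and 2330. Presynaptic release genes had 1 of 26 higher in B1, Unc13a (49.2 and 30.2), below the background of 9.71% of genes. Their median was -0.22, and Snap25 stood at 1175 and 1273. After centering on length and GC content, the presynaptic median was 0.05 over 25 genes, with none beyond 1.5-fold. Pan-neuronal markers had a median of -0.08, with Gap43 higher in B2 (66.0 and 100.2) and Slc17a7, the vesicular glutamate transporter of cortical excitatory neurons, at 629 and 439.

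Receptors and channels were less uniform. Potassium channels had 12 of 42 higher in B1 and none in B2 (median -0.34). Kcnk12 (15.0 and 5.28) and Kcnh2 (20.05 and 7.15) differed most, and Kcna6 stood at 15.6 and 19.6. Sodium and calcium channels had 3 of 28 higher in B1 (median -0.09), near the background of 9.71% of genes, led by Cacna1b (25 and 12.6). Among ionotropic glutamate receptors 3 of 13 were higher in B1 (median -0.27), Grik3, Grin2c and Grin2d, while the obligatory NMDA receptor subunit Grin1 stood at 235 and 223 and Grin2b at 25 and 33.6. Of 6 metabotropic receptors, 2 were higher in B1, Grm2 (46.9 and 23.9) and Grm4 (10.4 and 6.14). GABA-A receptors had a median of 0.06 over 12 genes, with Gabrb1 alone beyond 1.5-fold (15.0 and 23.6). Their median GC content was 42.6%. After centering on length and GC content their median ratio was -0.12, with no gene beyond 1.5-fold. Interneuron markers had a median of -0.13 over 17 genes. Pvalb, parvalbumin, was higher in B2 (70.2 and 118 FPKM), and Cort (9.36 and 5.94) and Maf (14.7 and 9.70) were higher in B1.

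Genes that follow the state of the animal differed at few members. Clock genes had 2 of 14 beyond 1.5-fold toward B1, Per1 and Nr1d1 (53.2 and 33.7 FPKM), with a median log2 ratio of -0.27. The list leaned toward B1, with ratios below 0 at 13 of the 14. Cry2 stood at 39.2 and 29.2, Tef at 71.1 and 55.6, and Arntl at 9.48 and 9.01. Only Dbp was above 0, at 32.3 and 35.0. After centering on length and GC content the clock median was -0.19, and no clock gene was beyond 1.5-fold toward B1. Per1 then had -0.40 and Nr1d1 -0.28, and Dbp (0.60) was beyond the limit toward B2. Glucocorticoid-responsive genes had a median of 0.12 over 14 genes, with Sgk1 at 7.22 and 8.41, Tsc22d3 at 15.9 and 17.0, and only Per1 beyond 1.5-fold. Heat shock genes had a median of 0.27 over 9 genes, and only Hsp90aa1 reached the limit (13.8 and 33.4). Interferon-induced genes had 1 of 7, Irf7, higher in B1 (3.04 and 1.54). The Y-linked Ddx3y (6.22 and 7.50), Eif2s3y (7.30 and 7.47), Kdm5d (1.57 and 1.53) and Uty (0.91 and 1.41) were present in both libraries, and Xist was at 0.01 FPKM or less in both, as labelled for males. The imprinted noncoding RNA Meg3 was higher in B2 (223 and 390), as was Snhg11 (73.1 and 116). Replication histones, whose mRNAs mostly lack poly(A), had 6 of 52 genes tested and none beyond 1.5-fold. None of 4 nonpolyadenylated RNAs passed the filter.

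Transcript length was related to the ratio, weakly. Spearman's rho was -0.22 over 11167 genes with a length. The shortest of 20 length bins, at 67 to 598 nt, had a median log2 ratio of 0.38, with 40.6% of genes higher in B2 and 14.7% in B1. The median fell to -0.12 in the bin of 4722 to 5465 nt, and for models longer than 6724 nt it was -0.05. GC content was related more strongly, with a rho of -0.56 over the 10518 genes (92.2%) with a value. In the bin with the lowest GC content, at 31.9 to 40.8%, the median was 0.28, and 24.7% of genes were higher in B2 and 0.95% in B1. In the bin with the highest, at 60.3 to 82.9%, it was -0.65, and 2.10% were higher in B2 and 56.8% in B1. For the ratio of D to C, rho was -0.00 with length and -0.15 with GC content. After centering on GC content, rho with length was -0.42, so the relation to length was stronger among genes of equal GC content. The extremes were the AT-rich genes shorter than 500 nt (GC content below 47.7%), with a median of 0.99 over 77 genes, and the GC-rich genes of at least 4000 nt (GC content above 53.8%), with -0.47 over 574. The mean internal insert was 239 nt in B1 and 193 nt in B2, and its part in these relations was not tested.

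**Figure D4:**
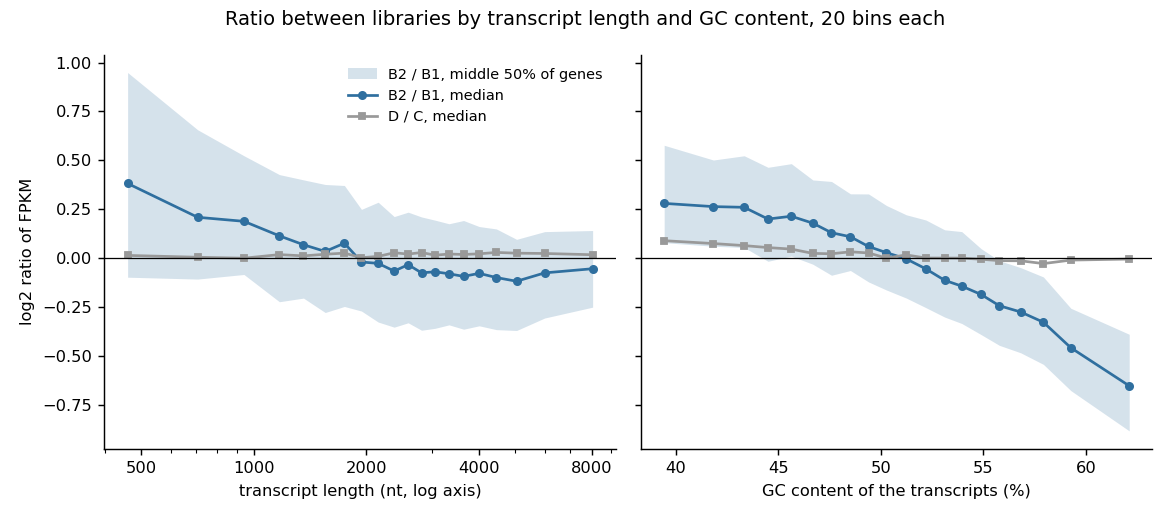
Median log2 ratio of FPKM by transcript length (log axis, left) and by GC content (right), in 20 bins of equal numbers of genes. Blue is B2 over B1 with the middle 50% of genes shaded, and gray is D over C. The blue medians run from 0.38 to -0.12 with length and from 0.28 to -0.65 with GC content, while the gray medians stay within 0.09 of 0.

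Within genes, length counted for less. In 1994 genes with at least 2 isoforms that passed the filter, the longest isoform had the lower ratio in 1094 (54.9%), and the median difference between the longest and the shortest was -0.09 on the log2 scale. In the 865 genes whose longest isoform was at least 2 times the shortest, the share was 53.8%.

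When each ratio was centered on the median of genes of similar length and GC content, 552 of 10518 genes (5.25%) were at least 1.5-fold higher in B2 and 522 (4.96%) in B1. The activity transcription factors kept a median of -0.54, with 5 of 12 beyond 1.5-fold toward B1, Ier5 (-1.84), Fosl2 (-1.17), Junb (-0.91), Egr3 (-0.67) and Egr4 (-0.59). Egr1 (0.20) and Fosb (0.21) changed sign under this centering, so the direction held for 10 of the 12. The activity effectors had a median of -0.31 against -0.17 before, but only 1 of 26, Pim1 (-0.60), was beyond 1.5-fold toward B1 against 7 before, and none toward B2. The mitochondrial mRNAs kept 1.07, with 10 of 13 beyond the limit, and the cytosolic ribosome 0.66, with 17 of 30. Complex I was reduced to 0.35 (12 of 32 beyond the limit), complex V to 0.36, complex IV to 0.28, the proteasome to 0.21 (4 of 30) and the mitochondrial ribosome to 0.01, from 0.13 over the same 63 genes. Postsynaptic genes had -0.25, with 2 of 24 beyond the limit toward B1, Dlg2 (-0.86) and Iqsec1 (-0.71). Potassium channels had -0.08, with 5 of 42 beyond it toward B1 and 1 toward B2. Over the glial and vascular lists 1 gene of 88 lay beyond the limit in each direction, Hba-a1 (0.92) toward B2 and toward B1 Aqp4 (-0.70), which was not among those beyond it before centering (-0.19).

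**Figure D5:**
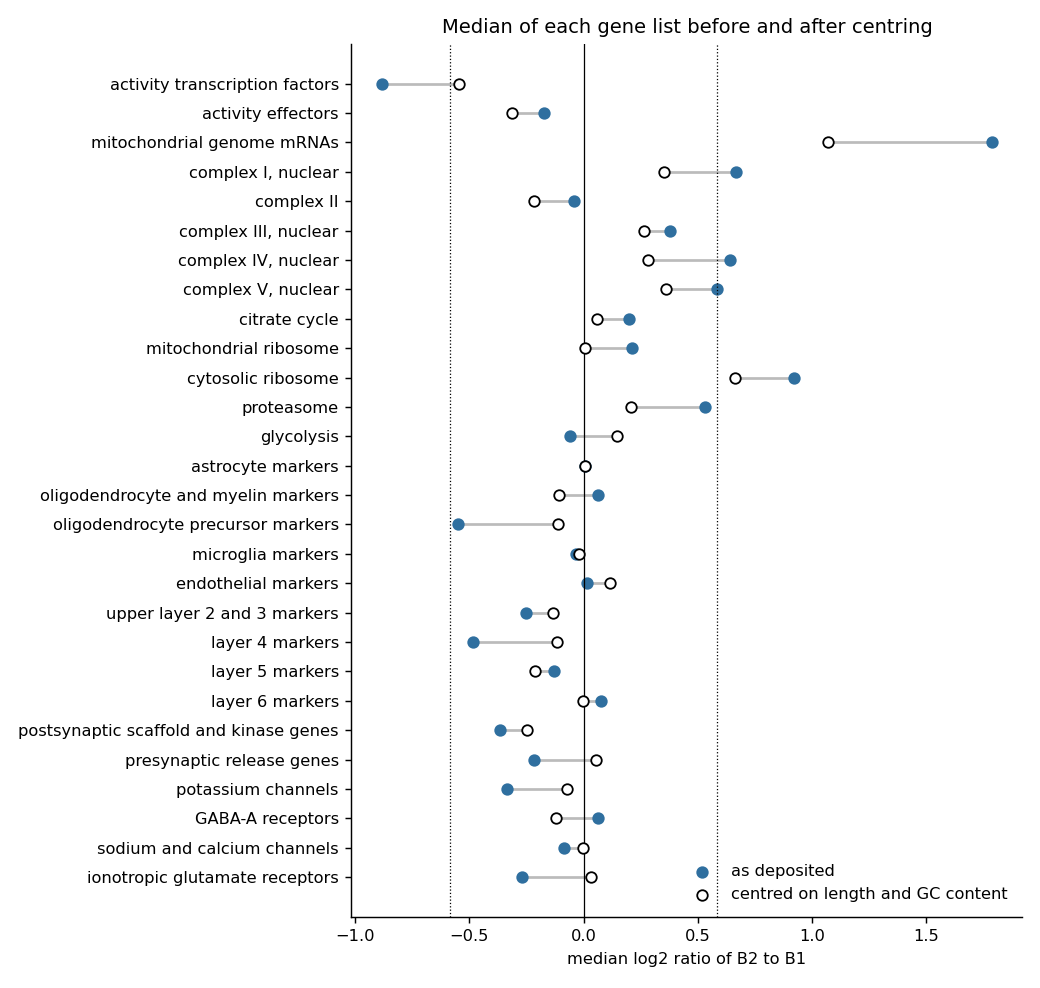
Median log2 ratio of B2 to B1 of 28 lists as deposited (blue) and after centering on transcript length and GC content (open circles). Dotted lines mark 1.5-fold. The mitochondrial mRNAs (1.79 to 1.07) and the cytosolic ribosome (0.92 to 0.66) stay beyond the line, and the activity transcription factors (-0.88 to -0.54) come to lie just inside it.

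The number of exons separated genes that length and GC content did not. Among protein-coding genes, the 275 whose main model has 1 exon had a median log2 ratio of -0.32, with 92 (33.5%) higher in B1 and 33 in B2. The 2559 genes with 2 to 5 exons had a median of -0.03, and the 6085 with 6 or more had -0.00. After centering, the single-exon genes still had a median of -0.31, and 24.4% were higher in B1 by 1.5-fold against 1.92% of the genes with 6 or more exons. Toward B2 the shares were 8.73% and 3.48%, so single-exon genes passed the limit more often in both directions. Between C and D the median of the single-exon genes was 0.10. Of the activity factors, Ier2, Ier5, Jun and Junb have a single exon, with a median of -1.06 and a range from -1.62 to -0.83. The other 8 had a median of -0.86 and a range from -1.26 to -0.02, so the ranges overlapped. Among single-exon genes 42.2% of model lengths were multiples of 3. Some of these can be models of the coding sequence alone. Other lengths also fall on multiples of 3, so the share of such models is not known.

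The genes of the largest differences were mixed in type. With a mean of at least 5 FPKM, the 10 highest and 10 lowest ratios included the small nucleolar RNAs Snord15b (215 FPKM in B1 and 0 in B2) and Snord96a (0 and 58.1), where 0 can stand for a gene without a line. They also included the microRNA loci Mir678 and Mir719, and the mitochondrial tRNA mt-Ty (8.86 and 138). All are shorter than the RNA size the extraction retained. Pseudogenes such as Gm12895 and Gm12896 (71.3 and 23.3, 70.6 and 23.2) were also among them. The protein-coding genes at the B1 end were Frat1, an inhibitor of GSK3 (14.2 and 3.09), the orphan receptor gene Gpr27 (13.4 and 3.59), Ccdc85c (24.9 and 7.36), Ier5, the thiol dioxygenase gene Ado (12.02 and 3.86) and the predicted gene Gm10645 (12.1 and 1.75). All but Ccdc85c have a single exon. Among protein-coding nuclear genes of at least 300 nt, a limit set after the values were seen, the B2 end was led by Ppig, a nuclear cyclophilin (20.4 and 82.7), Snrpd2, a core spliceosome protein (7.27 and 29.0), and Atp5j2 (21.0 and 80.2). The B1 end there also held Hnrnpa0 (66.8 and 23.5), the lipid phosphatase gene Inpp4a (84.4 and 29.8) and the latrophilin gene Adgrl1 (279 and 98.7).

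The most stable abundant genes came from several classes. Among protein-coding genes of at least 50 FPKM, the 10 nearest to the median ratio were Serinc3, Fam81a, Ptov1, Vsnl1, Fam213b, Emc4, Clta, Pkm, 6330403K07Rik and Rtn3, all with log2 ratios between -0.01 and 0.01. Vsnl1, a neuronal calcium sensor, stood at 310.1 FPKM in B1 and 309 in B2, Rtn3, a reticulon of the endoplasmic reticulum, at 288 and 286, and Pkm, pyruvate kinase, at 122 and 122. Clta, clathrin light chain A, stood at 115 and 115. These genes were picked on the ratio without centering. After centering on length and GC content, those with a GC value ran from -0.42 (Vsnl1) to 0.38 (Pkm).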

How the data were processed

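B1 and B2 were compared on FPKM, which the authors estimated and deposited on a linear scale. Per the labels and the study's methods, reads were mapped to mm9 with TopHat 1.0.13, and cufflinks 0.8.3 quantified Ensembl release 57 genes and transcripts with 95% intervals. The deposited coverage, an unnormalized signal per transcript, served only to estimate depth, with 2 reads of 50 nt per fragment. Features without a line were set to 0, and lines of 1 gene were summed. Symbols, biotypes, exons and GC content came from GENCODE M21 by identifier, and 10801 of 11409 tested genes had a symbol. Length is the FPKM-weighted mean over listed transcripts.

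Ratios used a pseudocount of 0.1 FPKM. Centering subtracted the median of 20 bins of length or GC content, or of 10 by 10 bins of both. Functions were tested on simulated data. Libraries were grouped by the labels. The members and the 53 gene lists were chosen with earlier results of these data known. Every gene of the activity factor, mitochondrial mRNA, layer 4 and sex lists is named, in other lists the most abundant gene and the highest and lowest ratio, then the extreme and the most stable genes. Other genes were named after their values were seen. A few genes that the rule would name are not reported here. Python 3.11.15, pandas 2.3.3 and numpy 2.4.6 were used. The depth and the interval widths limit each value's precision, and the intervals cover estimation error within a library only. The de novo models and the dorsal and lateral libraries were not used here.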

Additional observations from a re-analysis of the deposited data

How the results depend on the processing

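Of 742 alternative values of counts, list medians and relations, 691 stayed within 1.5 times the reported count or relation or within 0.21 of the reported median, the median over genes of the SD between B1 and B2 on the log2 scale. No list with a reported median beyond 1.5-fold changed sign. Of 671 list medians under alternatives, 34 crossed 0, in 17 of 52 lists, all with a reported median within 0.27 of 0. The number of genes higher in B2, 1210, was 2666 with no filter on interval width, 552 after centering on length and GC content, 413 at 2-fold and 3666 by nonoverlapping intervals. The number higher in B1, 1108, was 376 after centering on GC content, 522 after centering on both, 275 at 2-fold and 3911 by intervals. Centering on length alone lowered the medians of complex I to 0.37, complex III to 0.15, complex IV to 0.35, complex V to 0.37, blood to 0.37 and the cytosolic ribosome to 0.66. Centering on GC content alone gave -0.50 for the activity factors, 1.51 and 0.88 for the mitochondrial mRNAs and rRNAs, -0.20 for oligodendrocyte precursors, -0.12 for layer 4 (6 genes, at -0.15 without centering), -0.022 for ionotropic glutamate receptors, -0.18 for GABA-A receptors and -0.15 for sex genes, and it moved the relation to length to -0.42. Centering on both gave -0.54 for the activity factors, 1.07 and 0.58 for the mitochondrial mRNAs and rRNAs, 0.35, 0.28 and 0.36 for complexes I, IV and V, -0.11 for oligodendrocyte precursors, 0.15 for mural cells, 0.19 for blood and -0.12 for the same 6 layer 4 genes. It gave 0.052 for presynaptic genes, 0.031 for ionotropic glutamate receptors, -0.075 for potassium channels, 0.66 for the cytosolic ribosome, 0.21 for the proteasome, 0.20 for TRiC, 0.040 for COP9, 0.047 for heat shock, -0.16 for interferon-induced genes, -0.12 for sex genes and -0.23 for replication histones. With no interval filter the medians were 0.88 for complex IV, 0.85 for complex V, -0.16 for layer 4 and -0.31 for replication histones, and with the filter on B1 and B2 alone 0.84 for complex V and -0.16 for layer 4. Models of at least 300 nt, a limit chosen after seeing the data, gave 1.46 for the mitochondrial mRNAs, since the shortest were left out. For the other shifts the cause was not tested. Leaving out a replicate left no comparison. No paired analysis was possible because each litter has 1 library and no test was made. Precision below 1 FPKM is limited by depth.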
